A study of Mus musculus with 9 samples.

Results

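The Bcl2 family decides whether the outer mitochondrial membrane is opened and cytochrome c is released. Its pro-survival proteins (*Bcl2*, *Bcl2l1*, *Bcl2l2* and *Mcl1*) hold the pore-forming effectors (*Bax* and *Bak1*) in check, and BH3-only proteins (*Bid*, *Bad* and *Bcl2l11*) tip that balance by binding to either side. *Bnip3*, a BH3-like protein of the outer membrane, is best known as a hypoxia-induced receptor for mitophagy. In mature neurons *Bcl2l1* is the major pro-survival member, and the family acts on the same organelle as IF1, the inhibitor of the mitochondrial ATP synthase that was altered in these mice. The members described here are these 10 genes, taken by gene name out of 31093 gene names on the array, with 17 of its 39429 probes.

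Hippocampal RNA came from male C57BL/6J mice aged 9 months, with 3 mice per genotype and 1 array per mouse, on a one-colour Agilent mouse array. IF1-KO mice lacked exon 3 of the IF1 gene where Cre was expressed under the *Camk2a* promoter, that is mostly in excitatory neurons, so that other hippocampal cells kept the gene. IF1-TG mice carried human IF1 under a tetracycline-regulated element, driven by a transactivator under the same promoter. CRL mice were the controls, and the labels give no further genotype for them. In bulk tissue, fewer cells of a type and less RNA per cell cannot be told apart. All 10 excitatory neuron and hippocampal subfield markers were detected, with a summed level between 6.10 and 6.30 on all arrays. The sum weighs bright markers most, and single markers differed more. Their log2 differences ran from -0.63 to 0.38 for IF1-TG versus CRL and from -0.69 to 0.43 for IF1-KO versus CRL. For IF1-TG versus IF1-KO they ran from -0.94 to 0.27, and the 3 medians were -0.05, 0.04 and 0.04. Values are log2 signals, set against the 75th percentile within each array, and they are compared between genotypes for the same probe only.

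*Atpif1*, the mouse IF1 gene, checks the labels. Its level was 5.20 and 5.53 on the arrays with the labels IF1-KO replicate 2 and replicate 3. On the array labelled as IF1-KO replicate 1 it was 6.43, against 6.19 to 6.34 on the CRL and 6.38 to 6.51 on the IF1-TG arrays. This array thus goes against its label. Most differences that involve IF1-KO mice are therefore also given without it, while counts of probes that do not overlap include it. Whether the mouse probe reads the human transgene was not tested. The 3 slides also differed in genotype. IF1-TG replicates 1 and 2 were alone on slide 1, while slide 2 held 1 IF1-KO, 2 CRL and 1 IF1-TG array and slide 3 held 2 IF1-KO and 1 CRL array. With slide as a fixed block, as in the values below, the size of every IF1-TG difference therefore rests on IF1-TG replicate 3 alone. The share of probes well above background was 66.8% to 69.7% on IF1-TG arrays and 71.2% to 74.9% on the others.

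No Bcl2 family gene passed the thresholds of a 1.5-fold change and an unadjusted *P* value of 0.05 in any of the 3 comparisons. The count was 0 of 10 for IF1-TG versus CRL, where 5.59% of all genes passed, 0 of 10 for IF1-KO versus CRL, where 1.34% passed, and 0 of 10 for IF1-TG versus IF1-KO, where 4.7% passed. Without the array labelled as IF1-KO replicate 1 the counts were again 0. All 10 genes had at least 1 probe that was kept, meaning that every array of some genotype showed it well above background, and 15 of the 17 probes were kept. By the unadjusted *P* value alone, without the fold change, *Bcl2l1*, *Bcl2l2* and *Bid* differed between IF1-TG and CRL mice, 3 of 10 genes beside 10.5% of all genes. *Bid* and *Bad* differed between IF1-TG and IF1-KO mice, 2 of 10 beside 8.83%. No member did so between IF1-KO and CRL mice, beside 3.24%. None of these differences held after Benjamini-Hochberg adjustment over all probes in limma, where the smallest adjusted *P* among the members was 0.394. At an adjusted *P* of 0.05, 1 of 27991 probes passed for IF1-TG versus CRL (0.00357%), 0 for IF1-KO versus CRL and 3 for IF1-TG versus IF1-KO (0.0107%).

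**Figure D1:**
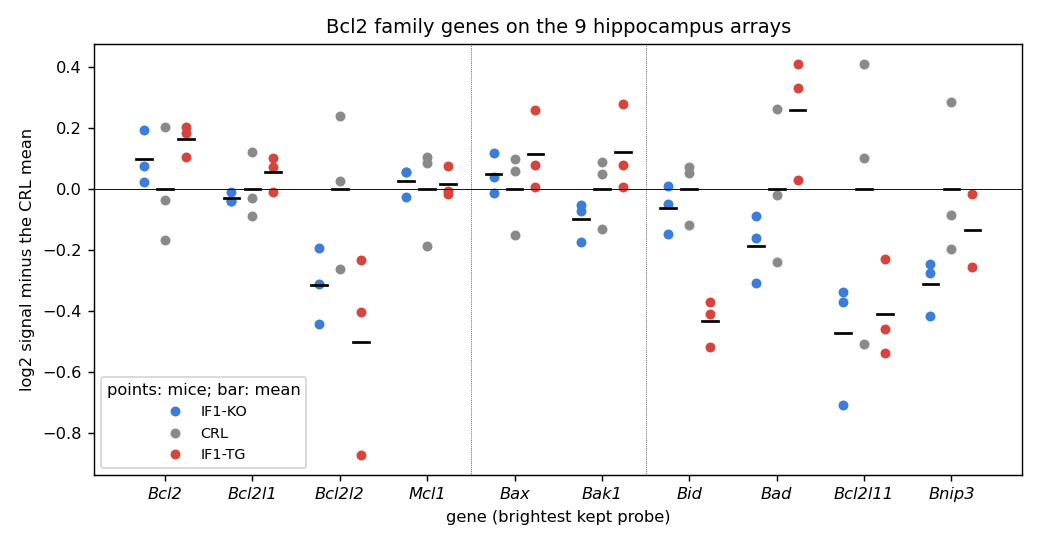
Log2 signal of each Bcl2 family gene minus the mean of the 3 CRL arrays (vertical axis), for the brightest kept probe of each gene (horizontal axis), with pro-survival genes on the left, effectors in the middle and BH3-only genes and Bnip3 on the right. Points are mice, coloured by genotype, and bars are genotype means; the 3 IF1-TG points of Bid lie below all IF1-KO and CRL points, and Bnip3 has 2 IF1-TG points because 1 spot was an outlier.

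*Bid* had the smallest unadjusted *P* of the family, with lower levels in IF1-TG than in CRL or IF1-KO mice. Its product is cut by caspase-8 to a fragment that activates *Bax* and *Bak1*, linking death receptors to mitochondria. The probe A_52_P574653 lies on chromosome 6 of mm9 (chr6:120843464-120843523, minus strand), at base 1504 of the transcript. The levels were -1.11, -0.96 and -1.00 on the IF1-TG arrays, -0.54, -0.52 and -0.71 on the CRL arrays and -0.64, -0.58 and -0.74 on the IF1-KO arrays. Every IF1-TG array was below every other array, while the IF1-KO and CRL arrays overlapped. The log2 difference between IF1-TG and CRL was -0.44 (standard error 0.11, 95% interval -0.69 to -0.19, unadjusted *P* = 0.00359, adjusted *P* = 0.394 in limma), a 1.35-fold lower level. Against IF1-KO it was -0.37 (standard error 0.11, unadjusted *P* = 0.00867, adjusted *P* = 0.66 in limma), and without the array labelled as IF1-KO replicate 1 it was -0.36 (unadjusted *P* = 0.0262). The IF1-KO and CRL levels differed by -0.06 (95% interval -0.31 to 0.19), or by -0.07 without the array labelled as IF1-KO replicate 1.

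The *Bid* difference was of similar size inside slide 2, where the log2 difference of the IF1-TG array was -0.47 from the CRL mean and -0.36 from the IF1-KO array of that slide, which is the one that goes against its label. With slide as a block the *Bid* difference was -0.45 against CRL and -0.41 against IF1-KO. These values rest on the same IF1-TG array and are no separate check. Leaving out any array kept the difference between -0.49 and -0.39 against CRL and between -0.41 and -0.33 against IF1-KO, with unadjusted *P* of at most 0.0317. The gene has no other probe on the array.

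*Bad*, whose product binds and neutralises *Bcl2l1* and *Bcl2* unless it is phosphorylated, stood the other way. Its brighter probe A_55_P1962234 (chr19:7026323-7026382 of mm9, plus strand) read 3.42, 3.34 and 3.04 in IF1-TG mice, 2.70, 2.92 and 2.85 in IF1-KO mice and 2.99, 3.27 and 2.77 in CRL mice. All IF1-TG arrays were above all IF1-KO arrays, with the CRL arrays spread across both. The log2 difference between IF1-TG and IF1-KO was 0.44 (standard error 0.16, 95% interval 0.07 to 0.81, unadjusted *P* = 0.0254, adjusted *P* = 0.679 in limma). It was 0.38 without the array labelled as IF1-KO replicate 1 (unadjusted *P* = 0.0818) and 0.16 with slide as a block (unadjusted *P* = 0.538). Against CRL the difference was 0.26 (95% interval -0.12 to 0.63), 0.0038 with slide as a block, and between 0.14 and 0.39 with an array left out.

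The dimmer *Bad* probe differed less between IF1-TG and IF1-KO mice. It is printed here because it covers, in capitals, the start codon of the shorter *Bad* protein:
A_65_P16603: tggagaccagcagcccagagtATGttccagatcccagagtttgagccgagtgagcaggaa
Its levels were -1.24, -1.89 and -1.54 in IF1-TG mice, -1.84, -1.55 and -1.59 in IF1-KO mice and -1.76, -1.64 and -1.99 in CRL mice. The genotypes overlapped fully, and the log2 difference between IF1-TG and IF1-KO was 0.10 (95% interval -0.32 to 0.52), or 0.01 without the array labelled as IF1-KO replicate 1. Between IF1-TG and CRL it was 0.24 (95% interval -0.19 to 0.66), near the 0.26 of the brighter probe, and between 0.08 and 0.40 with an array left out. With slide as a block it was 0.25, where the brighter probe stood at 0.0038. The annotation of the brighter probe lists 2 RefSeq transcripts and that of the dimmer probe lists 1 of them.

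Marker lists of other cells are given for the same comparison as the brighter *Bad* probe, where 4.7% of all genes passed the thresholds. The median log2 difference between IF1-TG and IF1-KO was 0.30 over 10 oligodendrocyte markers, of which 1 passed (*Ermn*), with 0.45 without the array labelled as IF1-KO replicate 1 and 0.16 with slide as a block. Over 8 astrocyte markers, of which 1 passed (*Aqp4*), it was 0.08, with 0.14 and -0.0069 in the same settings. Over 10 microglia markers it was 0.12, with 0.15 and 0.13. Over 6 choroid plexus markers it was 0.80, with 0.53 and -1.57, so that the direction turned with slide as a block. Endothelial markers (6 genes) stood at -0.13, with -0.12 and -0.25, and interneuron markers (7 genes) at -0.07, with -0.04 and 0.06. No microglia, choroid plexus, endothelial or interneuron marker passed. The summed oligodendrocyte level was 7.22 to 7.52 on IF1-TG, 7.10 to 7.44 on CRL and 6.63 to 7.20 on IF1-KO arrays, and the summed choroid plexus level spanned 2.28 to 7.49, 1.59 to 6.89 and 1.04 to 6.59. The summed microglia level was 5.96 to 6.19 on IF1-TG, 5.89 to 6.03 on CRL and 5.69 to 5.87 on IF1-KO arrays, so that all IF1-TG arrays were above all IF1-KO arrays, and the astrocyte level was 5.49 to 5.73, 5.56 to 5.74 and 5.44 to 5.61. All of these markers were kept, and their part in the result was not tested.

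Between IF1-TG and CRL, where 5.59% of all genes passed, the median differences were 0.0049 for oligodendrocyte, -0.06 for astrocyte, 0.06 for microglia, -0.11 for endothelial and 0.45 for choroid plexus markers, and no marker of these lists passed. In the fit with slide as a block they were -0.09, 0.02, 0.0089, -0.19 and -1.62. Interneuron markers stood at -0.25, or -0.0063 with slide as a block, and 1 of 7 passed as lower (*Pvalb*, by its dimmer probe, in only 2 of the 9 fits with an array left out). All 5 striatum markers that could be tested stood lower in IF1-TG than CRL mice by their brightest probes, with a median of -0.37 (-0.30 with slide as a block), and in IF1-KO than CRL mice, with a median of -0.41 (-0.32 without the array labelled as IF1-KO replicate 1, -0.49 with slide as a block). Of these only *Adora2a*, a receptor of striatal neurons, passed, beside 5.59% and 1.34% of all genes. In IF1-TG mice it stood at -0.96, or at -0.42 without CRL replicate 3, and passed in only 3 of the 9 fits with an array left out. In IF1-KO mice it stood at -1.16, or at -0.62 without CRL replicate 3, and passed in 7 of the 9 fits. Those without IF1-KO replicate 2 or replicate 3 did not pass, while the fit without the array labelled as IF1-KO replicate 1 did. The summed striatum level was 2.70 to 3.61 on IF1-TG, 2.91 to 3.61 on CRL and 2.73 to 2.98 on IF1-KO arrays. The part of these markers in the differences of *Bid*, *Bcl2l1* and *Bcl2l2* was not tested.

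Among the pro-survival genes, *Bcl2l1*, which codes for Bcl-xL, showed how far probes of 1 gene can differ. Its 2 probes start 48781 bases apart on chromosome 2 of mm9. The brighter, A_55_P1974877 (chr2:152606404-152606463, minus strand), starts at base 2563 of the transcript and holds the letters AATAAA of the polyadenylation signal. Its levels were 3.63, 3.52 and 3.60 in IF1-TG, 3.65, 3.50 and 3.44 in CRL and 3.49, 3.49 and 3.52 in IF1-KO mice. The 9 arrays lay within 0.21, and the difference between IF1-TG and CRL was 0.05 (95% interval -0.18 to 0.29).

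The second *Bcl2l1* probe (chr2:152655185-152655244, minus strand) lies in the coding sequence, with an open reading frame from its second base, and also set the IF1-TG arrays apart from both other genotypes:
A_52_P510877: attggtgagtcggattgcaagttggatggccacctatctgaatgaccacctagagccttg
The levels were -2.59, -2.57 and -2.58 in IF1-TG mice, -2.91, -2.86 and -3.10 in CRL mice and -2.88, -2.73 and -2.69 in IF1-KO mice. Every IF1-TG array was above every other array. The log2 difference between IF1-TG and CRL was 0.38 (standard error 0.11, 95% interval 0.12 to 0.63, unadjusted *P* = 0.00941, adjusted *P* = 0.481 in limma) and stayed between 0.30 and 0.43 whichever array was left out. With slide as a block it was 0.37 (unadjusted *P* = 0.0714). Between IF1-TG and IF1-KO the difference was 0.19 (unadjusted *P* = 0.13), or 0.13 without the array labelled as IF1-KO replicate 1.

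**Figure D2:**
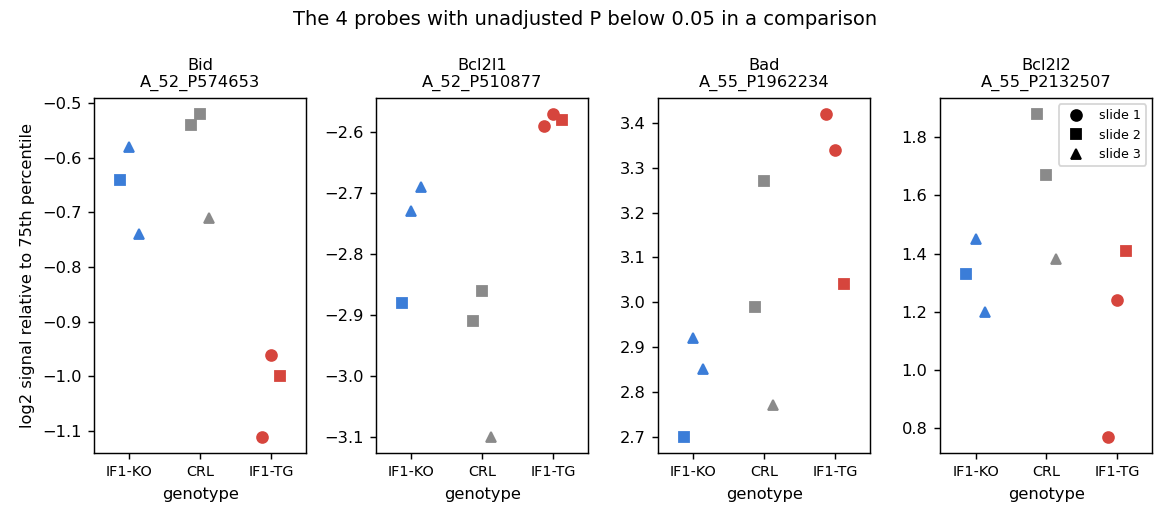
Log2 signal relative to the array's 75th percentile (vertical axis, a separate scale per panel) by genotype (horizontal axis) for the probes of Bid, Bcl2l1, Bad and Bcl2l2 with an unadjusted P below 0.05 in a comparison. Each symbol is a mouse and its shape gives the slide; the IF1-TG square of Bid, the only IF1-TG array on slide 2, lies beside the other IF1-TG arrays, while for Bad it lies below them.

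*Bcl2l2*, which codes for the pro-survival protein Bcl-w, had its lowest mean in IF1-TG mice, with 1 of the 3 arrays far below the others. The kept probe A_55_P2132507 (chr14:55506840-55506899 of mm9, plus strand) read 0.77, 1.24 and 1.41 in IF1-TG mice, 1.88, 1.67 and 1.38 in CRL mice and 1.33, 1.45 and 1.20 in IF1-KO mice. The IF1-TG and CRL arrays overlapped. The log2 difference was -0.50 (standard error 0.19, 95% interval -0.94 to -0.06, unadjusted *P* = 0.0299, adjusted *P* = 0.548 in limma), the largest for a brightest probe in this comparison. It ranged from -0.63 without IF1-TG replicate 3 to -0.32 without IF1-TG replicate 1, with unadjusted *P* from 0.0146 to 0.106, and it passed both thresholds without IF1-TG replicate 3 or CRL replicate 3. With slide as a block it was -0.31 (unadjusted *P* = 0.274). The other *Bcl2l2* probe, A_55_P2144120, was well above background on 1 of 9 arrays and was not kept.

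*Bcl2*, the founding member, showed no difference beyond the spread of its arrays. Its only probe (chr1:108608970-108609029 of mm9, minus strand) reads coding sequence, and the capitals mark the last codons of the BH1 domain:
A_51_P380013: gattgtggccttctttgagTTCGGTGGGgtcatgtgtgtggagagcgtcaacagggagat
The levels were -1.24, -1.16 and -1.14 in IF1-TG mice, -1.38, -1.14 and -1.51 in CRL mice and -1.32, -1.27 and -1.15 in IF1-KO mice. The log2 difference from CRL was 0.16 (95% interval -0.12 to 0.45) in IF1-TG and 0.10 (95% interval -0.19 to 0.38) in IF1-KO mice, or 0.14 without the array labelled as IF1-KO replicate 1. With an array left out the differences ranged from 0.08 to 0.26 in IF1-TG and from 0.01 to 0.20 in IF1-KO mice. RefSeq lists 2 *Bcl2* transcripts, and the probe's annotation names 1 of them. Whether the probe also reads the other was not tested.

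*Mcl1*, a short-lived pro-survival protein needed for neuronal survival, was among the steadiest genes by its brighter probe. A_51_P238786 (chr3:95466855-95466914 of mm9, plus strand) read 2.91, 3.00 and 2.92 in IF1-TG, 3.01, 3.03 and 2.74 in CRL and 2.98, 2.98 and 2.90 in IF1-KO mice. The IF1-TG and CRL means differed by 0.02 (95% interval -0.24 to 0.28). The dimmer probe A_52_P93933 starts 1312 bases upstream and read -2.43, -2.15 and -3.45 in IF1-TG, -2.17, -2.08 and -2.23 in CRL and -2.10, -2.26 and -2.37 in IF1-KO mice. IF1-TG replicate 3 alone was low.

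That array decided every value of the dimmer *Mcl1* probe in IF1-TG mice. The log2 difference from CRL was -0.51 (unadjusted *P* = 0.117) over all arrays, -0.12 (unadjusted *P* = 0.415) without IF1-TG replicate 3 and -0.78 (unadjusted *P* = 0.0238) without IF1-TG replicate 2. With slide as a block it was -1.34, since IF1-TG replicate 3 was the only IF1-TG array that shared a slide with other genotypes. The brighter probe on the same array read 2.92, level with the other IF1-TG arrays.

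**Figure D3:**
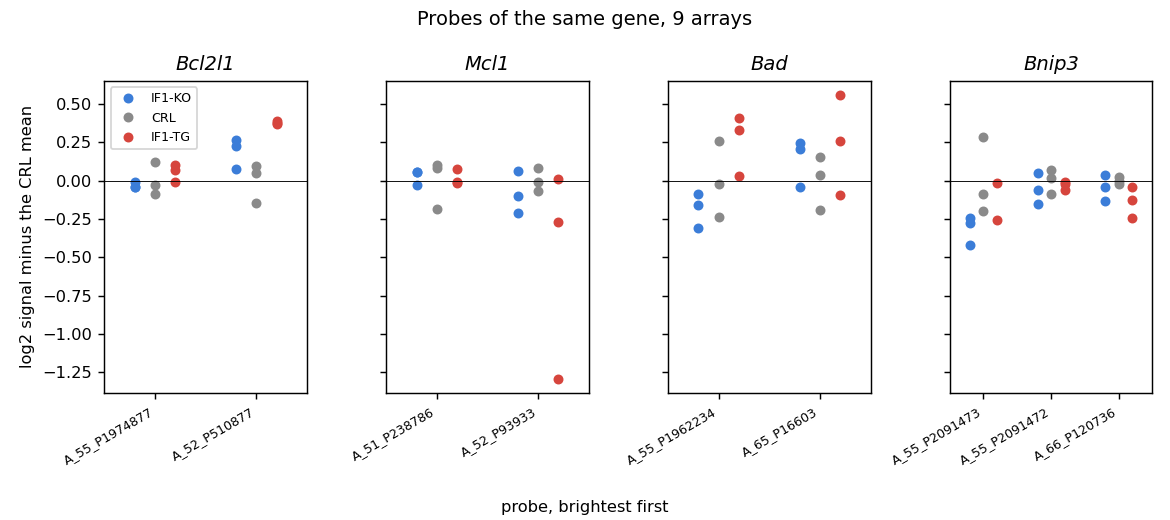
Log2 signal minus the mean of the 3 CRL arrays (vertical axis) for the kept probes of the 4 genes with more than 1 (Bcl2l1, Mcl1, Bad and Bnip3), with probes ordered from the brightest on the left (horizontal axis). Points are mice, coloured by genotype; 1 IF1-TG array lies far below the rest for the dimmer Mcl1 probe, and the dimmer Bcl2l1 probe sets the IF1-TG arrays apart where the brighter does not.

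The effectors *Bax* and *Bak1*, which form the pores of the outer membrane, differed little. *Bax* (A_55_P2137406, chr7:52717122-52717181 of mm9, minus strand) read 0.66, 0.84 and 0.59 in IF1-TG, 0.68, 0.64 and 0.43 in CRL and 0.57, 0.62 and 0.70 in IF1-KO mice. The genotypes overlapped in all pairs, and the log2 difference from CRL was 0.11 (95% interval -0.16 to 0.39) in IF1-TG and 0.04 (95% interval -0.23 to 0.32) in IF1-KO mice, or 0.08 without the array labelled as IF1-KO replicate 1. *Bak1* (A_55_P2013113, chr17:27156807-27156866, minus strand) read 0.47, 0.27 and 0.20 in IF1-TG, 0.24, 0.28 and 0.06 in CRL and 0.02, 0.12 and 0.14 in IF1-KO mice. The IF1-TG arrays were all above the IF1-KO arrays, by a mean of 0.22 (95% interval -0.05 to 0.49, unadjusted *P* = 0.0992). The log2 difference was 0.18 without the array labelled as IF1-KO replicate 1 and 0.08 with slide as a block (unadjusted *P* = 0.687).

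The log2 ratio of *Bax* to *Bcl2*, often taken as an index of readiness for apoptosis, differed between genotypes by less than its spread. Relative to the CRL mean it was -0.05 ± 0.14 in IF1-TG and -0.05 ± 0.03 in IF1-KO mice, beside a spread of 0.14 in CRL mice (SD, n = 3 each), and the IF1-KO mean was -0.06 without the array labelled as IF1-KO replicate 1. The arrays read -0.03, 0.07 and -0.20 in IF1-TG, 0.13, -0.15 and 0.01 in CRL and -0.04, -0.04 and -0.08 in IF1-KO mice. A change of both genes together would not show in this ratio.

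*Bcl2l11*, which codes for Bim, a strong activator of apoptosis in neurons deprived of trophic support, was near the detection limit. The kept probe reads coding sequence, and the capitals mark codons at the core of the BH3 domain:
A_51_P484880: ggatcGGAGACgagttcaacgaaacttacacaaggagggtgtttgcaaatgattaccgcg
It read -6.58, -6.27 and -7.19 in CRL, -7.39, -7.02 and -7.05 in IF1-KO and -7.22, -6.91 and -7.14 in IF1-TG mice. It was well above background on 3 CRL, 2 IF1-KO and no IF1-TG arrays, so that it was kept through the CRL arrays only, and no difference or test is given for it. CRL replicate 3 read as low as the IF1-KO and IF1-TG arrays. The other *Bcl2l11* probe, A_52_P348214, stayed at background level on every array.

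*Bnip3* has 3 probes on the array, all well above background on every array. They lie within a short stretch of chromosome 7 of mm9, with starts 120 and 104 bases apart. The brightest, A_55_P2091473 (chr7:146082760-146082819, minus strand), read 4.60, 4.23 and 4.12 in CRL and 3.90, 4.07 and 4.04 in IF1-KO mice. It read 4.30 and 4.06 in IF1-TG mice, where the spot of replicate 2 was an outlier and was left out of the fit. The IF1-KO arrays lay below the CRL arrays, and the log2 difference was -0.31 (95% interval -0.68 to 0.06, unadjusted *P* = 0.0861). It was -0.26 without the array labelled as IF1-KO replicate 1 and -0.17 without CRL replicate 1, and it was -0.41 (unadjusted *P* = 0.0458) without CRL replicate 3.

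The other *Bnip3* probes did not show this gap. Between IF1-KO and CRL the log2 difference was -0.05 for both A_55_P2091472 (95% interval -0.30 to 0.19) and A_66_P120736 (95% interval -0.29 to 0.20), and it was -0.0028 and -0.05 without the array labelled as IF1-KO replicate 1. For A_66_P120736 the IF1-TG arrays read -1.72, -1.64 and -1.84 and lay below the CRL arrays at -1.57, -1.62 and -1.60, by a mean log2 difference of -0.14 (unadjusted *P* = 0.233). Across the family, 3 of 15 probes did not overlap between IF1-TG and CRL, beside 12.2% of all probes, 1 of 15 between IF1-KO and CRL, beside 8%, and 4 of 15 between IF1-TG and IF1-KO, beside 13.6%.

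The differences of the 9 members other than *Bcl2l11* were centred near 0. The median log2 difference over their brightest probes was 0.05 for IF1-TG versus CRL, -0.06 for IF1-KO versus CRL and 0.07 for IF1-TG versus IF1-KO. Without the array labelled as IF1-KO replicate 1 the medians with IF1-KO mice were -0.07 and 0.04. Over all genes the medians were -0.00064, -0.0083 and 0.0066. The intervals also limit how large a change could have been missed. The 95% interval lay inside a 1.5-fold change in either direction for 6 of these 9 members in IF1-TG versus CRL, beside 45.8% of genes, and for 7 of 9 in IF1-KO versus CRL, beside 50.7%. In IF1-TG versus IF1-KO it did so for 6 of 9, beside 46.6%, or for 5 without the array labelled as IF1-KO replicate 1. With *Bcl2l11* counted, the 3 counts were 6, 7 and 6 of 10. The 9 members had mean signals above those of 49.4% to 94.5% of genes, and the share among genes of like signal was not tested. *Bcl2*, *Bcl2l1*, *Mcl1*, *Bax* and *Bak1* had intervals inside a 1.5-fold change in all 3 comparisons, and *Bcl2l2* in none. These intervals come from the fit without slide. With slide as a block the standard error of *Bcl2* in IF1-TG versus CRL was 0.19 instead of 0.12, so that its interval is wider there. All of this holds for the brightest probes only. Between IF1-TG and CRL the intervals of the dimmer *Bcl2l1* probe (0.12 to 0.63) and of the dimmer *Mcl1* probe (-1.18 to 0.16) reached beyond a 1.5-fold change. That of the dimmer *Mcl1* probe also did so for IF1-KO versus CRL (-0.75 to 0.59) and IF1-TG versus IF1-KO (-1.11 to 0.24).

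**Figure D4:**
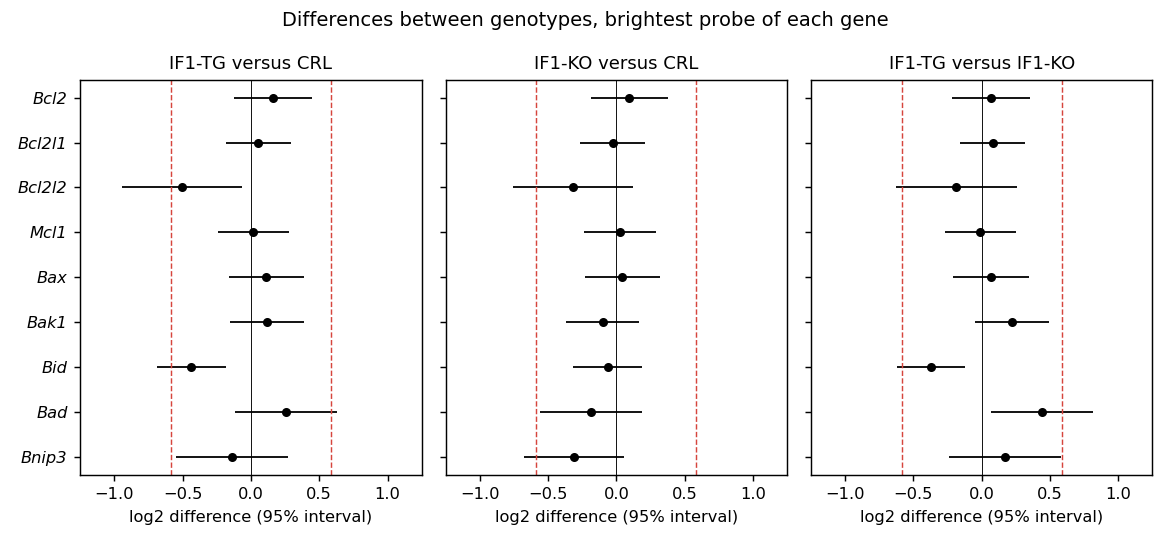
Log2 difference between genotypes (horizontal axis) with its 95% interval for the brightest kept probe of each Bcl2 family gene except Bcl2l11 (vertical axis), in 3 panels for the 3 comparisons. Dashed lines mark a 1.5-fold change in either direction; every point lies between them, and the intervals of Bid exclude 0 in both comparisons with IF1-TG mice.

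The members differed in how much they varied over the 9 arrays, which takes in differences between genotypes. The SD over the 9 arrays was 0.07 for *Bcl2l1*, 0.09 for *Mcl1*, 0.11 for *Bax*, 0.13 for *Bcl2* and 0.13 for *Bak1*. These values were above those of 2.05% to 17.3% of genes. The SDs were larger, 0.31 for *Bcl2l2*, 0.26 for *Bad*, 0.22 for *Bid* and 0.21 for *Bnip3*, above those of 40.1% to 62.8% of genes. The median SD was 0.13 over these 9 members, 0.17 with *Bcl2l11* counted, and 0.25 over all genes. The 9 members had mean signals above those of 49.4% to 94.5% of genes, and the part of signal in these SDs was not tested. For *Bid* the SD within genotypes was 0.09. *Bcl2l11* is otherwise left out, since its probe was well above background on 5 of the 9 arrays only.

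What the probes read also differed. The letters AATAAA, searched on the strand of the probe only, were in 4 of the 17 member probes and in 12.6% of the 60-base probes of the array. These were the brighter probes of *Bad* and *Bcl2l1*, the middle probe of *Bnip3* and the *Bcl2l2* probe that was not kept. The GC content of the member probes ranged from 21.7% in that *Bcl2l2* probe to 55.0% in the dimmer *Bad* probe, with a median of 41.7% over the array. The annotation placed 14 of the 17 probes on mm9, and all 10 symbols matched RefSeq.

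The patterns of *Bax* and *Bcl2* over the 9 arrays were set against those of 21657 genes. *Bax* was most like *Kif24* (Pearson r = 0.94), *Pnpla3* (0.93) and *Gm8075* (0.88). *Bcl2* was most like a probe without a gene name, A_55_P1988718 (r = 0.96), *Itpkb* (0.88) and *LOC552907* (0.87). The arrays share genotype, slide and scaling, and these values only describe them.

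The wider cell death machinery was read against the same shares of all genes, 5.59% for IF1-TG versus CRL, 1.34% for IF1-KO versus CRL and 4.7% for IF1-TG versus IF1-KO. Among 13 further Bcl2 relatives that could be tested, 1 passed in each comparison. *Bik*, a BH3-only gene of the endoplasmic reticulum, read -7.89, -7.47 and -8.42 in IF1-TG, -6.92, -6.66 and -6.77 in CRL and -6.97, -7.23 and -6.80 in IF1-KO mice. The count of 1 in both comparisons with IF1-TG mice is *Bik*. It was well above background on no IF1-TG array and was kept through the CRL arrays only, so that no fold or test is given for it. *Bnip3l*, the mitophagy receptor closest to *Bnip3*, passed as lower in IF1-KO than CRL mice by probe A_55_P2046943 (log2 difference -0.75, unadjusted *P* = 0.0466). The array labelled as IF1-KO replicate 1 read 0.67 there against 1.99 and 1.95 on the other IF1-KO arrays, and the difference was -0.32 and did not pass without it. It passed in 2 of the 9 fits with an array left out. The brightest of the 4 *Bnip3l* probes differed by -0.17 (unadjusted *P* = 0.277), or by -0.28 without the array labelled as IF1-KO replicate 1, which did not pass.

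Among 20 genes of the apoptosome, the caspases and the factors that mitochondria release, 2 passed in each comparison with IF1-TG mice, beside 5.59% and 4.7% of all genes, and 1 between IF1-KO and CRL, beside 1.34%. Each count includes *Birc5*, which is all of the count between IF1-KO and CRL. *Birc5*, which codes for survivin, entered the counts by its dimmer probe A_55_P1983768. That probe read -5.63, -5.50 and -5.15 in IF1-TG, -6.02, -5.56 and -6.58 in IF1-KO and -6.88, -6.62 and -6.57 in CRL mice. It was well above background on 2 of 3 CRL arrays and was kept through the other genotypes, where it is higher, so that its differences are given as fitted and with no test. They were 1.26 between IF1-TG and CRL, 0.63 between IF1-KO and CRL and 0.63 between IF1-TG and IF1-KO. Without the array labelled as IF1-KO replicate 1 those with IF1-KO were 0.62 and 0.64, and *Birc5* left both counts. With any 1 array left out they ranged from 0.39 to 0.90 and from 0.36 to 0.88. By the brighter *Birc5* probe the IF1-TG and CRL difference was 0.26 (unadjusted *P* = 0.109).

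*Diablo*, which codes for the Smac protein that relieves caspases from inhibition, passed as lower in IF1-TG mice by its dimmer probe A_66_P133025. It read -5.86, -5.57 and -5.17 in IF1-TG, -4.09, -4.73 and -4.56 in CRL and -4.53, -4.54 and -4.67 in IF1-KO mice. All IF1-TG arrays were below all others, with log2 differences of -1.08 from CRL (unadjusted *P* = 0.00086, adjusted *P* = 0.327 in limma) and -0.95 from IF1-KO (-0.92 without the array labelled as IF1-KO replicate 1). The brighter *Diablo* probe ran the other way, at 0.30 between IF1-TG and CRL (unadjusted *P* = 0.174), but at 0.04 without CRL replicate 1.

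Of 23 regulators and partners of Bcl2 proteins, only *Gsk3b* passed, a kinase that marks Mcl1 for degradation, in the comparisons where 5.59% and 4.7% of all genes passed. Its brightest probe A_55_P1981415 read 2.67, 2.43 and 3.30 in IF1-TG, 1.83, 2.26 and 1.77 in CRL and 1.68, 2.01 and 2.54 in IF1-KO mice. The log2 difference was 0.85 between IF1-TG and CRL (unadjusted *P* = 0.0164, adjusted *P* = 0.521 in limma) and 0.72 between IF1-TG and IF1-KO, which was 0.52 and did not pass without the array labelled as IF1-KO replicate 1. Without IF1-TG replicate 3 they were 0.60 and 0.47 and neither passed, and each passed in 6 of the 9 fits with an array left out. The other *Gsk3b* probes differed by 0.20 and -0.15 between IF1-TG and CRL. Of 17 hypoxia and mitophagy genes only *Vegfa*, a growth factor induced by hypoxia, passed, beside 5.59% of all genes. It did so as higher in IF1-TG than CRL mice by its dimmer probe A_52_P249424 (log2 difference 0.65, unadjusted *P* = 0.00774, or 0.50 and not past without IF1-TG replicate 3). Its brighter probe stood at -0.74 (unadjusted *P* = 0.0735), and that probe passed as lower without the array labelled as IF1-KO replicate 1. Between IF1-TG and IF1-KO the brighter probe stood at -0.66 (unadjusted *P* = 0.102). Without that array it stood at -1.13 and passed as lower, beside 6.25% of all genes. The medians of these 4 lists between IF1-TG and CRL lay from -0.02 to -0.00041, beside -0.00064 over all genes. With slide as a block they were -0.21 for the Bcl2 relatives, -0.08 for the apoptosome list, 0.0044 for the regulators and 0.01 for the hypoxia and mitophagy genes, beside 0.04 over all genes.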

How the data were processed

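The intensities deposited by the authors came from Agilent Feature Extraction 10.7.3.1, with background subtracted within each array and no normalization between arrays. Per-spot marks in the deposited tables (outlier, surrogate value, well above background) were taken without change. Its log2 was taken, the 75th percentile of each array was subtracted, and control and outlier spots were left out. The filter kept 27991 of 39429 probes (21905 gene names), those that every array of some genotype showed well above background. No spot was saturated.

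Genotypes were compared in 1 fit over all 9 arrays (limma 3.58.1, eBayes, R 4.3.3). A gene passed when at least 1 kept probe reached a fold change of 1.5 and an unadjusted *P* value of 0.05, the criterion of the study's methods. Benjamini-Hochberg adjustment covered all kept probes. Unless stated, *P* values are unadjusted and from this fit. A gene is given by its brightest kept probe unless another is named. When an array was left out, the filter was applied again to the remaining arrays. Precision is limited by the number of arrays. The steps were tested on simulated data. Replicate correlations were 0.983 to 0.992.

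The members and lists were chosen with earlier results of these data known. All members and all their probes are named, and of the 4 lists of related genes those that passed. Slides come from the deposited array labels. RefSeq symbols are those of GRCm38.p6, and no coordinate was taken from it. Alternatives were normexp correction of the deposited mean and background intensities (offset 50) with quantile normalization, quantile normalization alone, other filters on dim probes, blocks for slide (fixed or random) or replicate number, fits of only 2 genotypes, trended and robust eBayes, probe means per gene, and each array left out.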

Additional observations from a re-analysis of the deposited data

How the results depend on the processing

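The count of members past the thresholds was 0 in most settings, with 1 or 2 genes past them in the others. For IF1-TG versus CRL it was 1 without the filter on dim probes (*Bcl2l11*, by the probe that stayed at background level on every array), 1 with slide as a fixed block (*Mcl1*, by its dimmer probe) and 0 to 2 when each array was left out: *Bcl2l2* and *Bcl2l11* without CRL replicate 3, *Mcl1* without IF1-TG replicate 2 and *Bcl2l2* without IF1-TG replicate 3. For IF1-TG versus IF1-KO it was 1 without the filter (*Bcl2l11*), 1 with slide as a fixed block (*Mcl1*) and 0 to 1 with arrays left out (*Mcl1* without IF1-TG replicate 2). For IF1-KO versus CRL it was 0 to 1 with arrays left out (*Bcl2l11* without CRL replicate 3). With the replicate number as a block it was 0 in all 3 comparisons. Same-numbered samples did not deviate together, with correlations from -0.15 to 0.15. With 3 mice per genotype such values cannot decide whether the numbers pair the mice, and the labels do not say.

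Of 513 values of single genes (*Bcl2l11* left out), 488 kept their direction and side of the threshold, and 23 changed sign, all from small differences. With quantile normalization *Mcl1* was -0.009 between IF1-TG and CRL. With slide as a fixed block *Bax* was -0.016, *Bak1* -0.008 and *Mcl1* -0.056 in that comparison, and *Bax* was -0.082 between IF1-TG and IF1-KO. With the mean of a gene's probes *Mcl1* was -0.248 in IF1-TG and -0.026 in IF1-KO relative to CRL, and *Bcl2l1* was 0.081 in IF1-KO. With normexp and quantile normalization *Bax* was -0.03 and *Mcl1* -0.058 in IF1-KO relative to CRL, while *Mcl1* was 0.111 and *Bnip3* -0.068 between IF1-TG and IF1-KO. With arrays left out, the values that crossed 0 were *Bnip3* from -0.257 to 0.004 and *Mcl1* from -0.075 to 0.066 in IF1-TG versus CRL, *Bcl2l1* from -0.071 to 0.033, *Bax* from -0.032 to 0.093 and *Mcl1* from -0.065 to 0.076 in IF1-KO versus CRL, and *Mcl1* from -0.038 to 0.008 and *Bax* from -0.003 to 0.123 in IF1-TG versus IF1-KO. The cause was not tested. No differences of *Bcl2l11* are given. In the comparisons with IF1-TG mice its place in the counts above rests on probes well above background on no IF1-TG array. Between IF1-KO and CRL it rests on a probe well above background on 2 IF1-KO arrays, with the lowest CRL array left out.

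The counts of all genes past the thresholds, 1224, 294 and 1030 for IF1-TG versus CRL, IF1-KO versus CRL and IF1-TG versus IF1-KO, were 4526, 723 and 3114 without the filter and 557, 161 and 554 with normexp and quantile normalization. For IF1-TG versus CRL a fixed slide block gave 2175, and 1917 passed without IF1-TG replicate 2. For IF1-KO versus CRL it was 177 with probes well above background on every array, 496 without IF1-KO replicate 1 and 1111 without CRL replicate 3. For IF1-TG versus IF1-KO 621 passed without IF1-KO replicate 2, while leaving out IF1-TG replicate 2 gave 1717 and leaving out IF1-TG replicate 3 gave 1607.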
